A study of Oryza sativa Japonica Group with 6 samples.

Results

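Tonoplast intrinsic proteins (TIPs) are aquaporins, the channel proteins of the vacuolar membrane, and 7 TIP genes of rice were followed here: TIP1-1 (OsTIP1;1, LOC_Os03g05290), TIP1-2 (OsTIP1;2, LOC_Os01g74450), TIP2-1 (OsTIP2;1, LOC_Os02g44080), TIP2-2 (OsTIP2;2, LOC_Os06g22960), TIP3-1 (OsTIP3;1, LOC_Os10g35520), TIP3-2 (OsTIP3;2, LOC_Os04g44570) and TIP4-1 (OsTIP4;1, LOC_Os05g14240). The TIP1-1 style of name is that of the RefSeq gene table. The genes were chosen as a family, by their locus identifiers, with earlier results of these data known. They are not all TIP genes of rice. The RefSeq table also lists TIP4-2 on chromosome 1 and TIP5-1 on chromosome 4. Since it holds no identifiers of the kind used in the deposited tables, neither could be matched to a locus, and neither was analysed here under its name. All 7 were found among the 55986 loci of the deposited tables. Their identifiers place them on chromosomes 3, 1, 2, 6, 10, 4 and 5, in the order given, and that table, made on the ASM3414082v1 assembly, lists genes of the same 7 names on the same chromosomes.

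RNA was sequenced from early seedlings of rice, whose buds had reached about 5 mm, at the end of 3 h of chilling at 2 °C. The overexpression plants (OEZ) carried the OsLTPL159 allele of the cold-tolerant introgression line IL112, driven by the cauliflower mosaic virus 35S promoter, in the japonica variety Zhonghua17, and the control plants (ZH17) were nontransformed Zhonghua17. Each genotype had 3 replicates, each a pool of 50 plants, and all 6 pools were chilled, so the values compare genotypes in the cold and not cold with warmth. The number of independent transgenic lines in the OEZ pools is not given in the sources used here, and the transgene cannot be told apart from other differences between the lines.

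The vacuole fills most of a mature plant cell, and TIPs let water cross its membrane quickly, which buffers the cytoplasm against osmotic shifts and feeds the growth of expanding cells. Plant genomes carry several TIP classes, named by the first digit of the gene name. TIP1 genes are the general water channels of the large vacuoles of vegetative tissue. TIP2 proteins also pass ammonia, as shown for members from Arabidopsis and wheat, and TIP4 proteins of Arabidopsis pass urea. TIP3 proteins belong to the protein storage vacuoles of maturing and germinating seeds.

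Expression was given as FPKM, in which the fragments of a locus are divided by its exon length and by the mapped reads of the library, so that levels can be set side by side between genes. FPKM values of all loci summed to 859282 to 902931 in OEZ and to 856329 to 864333 in ZH17. Absolute depth cannot be read from FPKM. Relative depth, taken from the steps between the lowest values, was 1.02 to 1.32 in OEZ and 1 to 1.16 in ZH17, with ZH17 replicate 1 set to 1. OsLTPL159 (LOC_Os10g36160) had 2506, 2539.9 and 2502 FPKM in OEZ replicates 1, 2 and 3, against 141, 138 and 131 FPKM in ZH17 replicates 1, 2 and 3, as the genotype labels say. OEZ replicate 2 stood apart from the other OEZ pools in several loci of grain reserves, as described with TIP3-1.

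The 7 genes covered a wide range of levels. TIP1-1 was the most highly expressed TIP in all 6 pools and ranked 79th of all 55986 loci by its mean FPKM. TIP2-2 ranked 235th and TIP4-1 ranked 269th. TIP2-1 followed at rank 1231. TIP3-1 and TIP1-2, at means of 10.4 and 9.60 FPKM over the 6 pools, ranked 10696th and 11155th, and TIP3-2 lay below 0.5 FPKM in every pool. In OEZ the order was TIP1-1, TIP2-2, TIP4-1, TIP2-1, TIP3-1, TIP1-2 and TIP3-2. TIP2-2 and TIP4-1 could not be separated in OEZ, where their pools overlapped and TIP2-2 was the higher in 1 of 3 pools. The ZH17 order differed only in placing TIP1-2 before TIP3-1, and the pools of these genes overlapped in ZH17. All other neighbours in both orders had no overlap between pools.

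**Figure D1:**
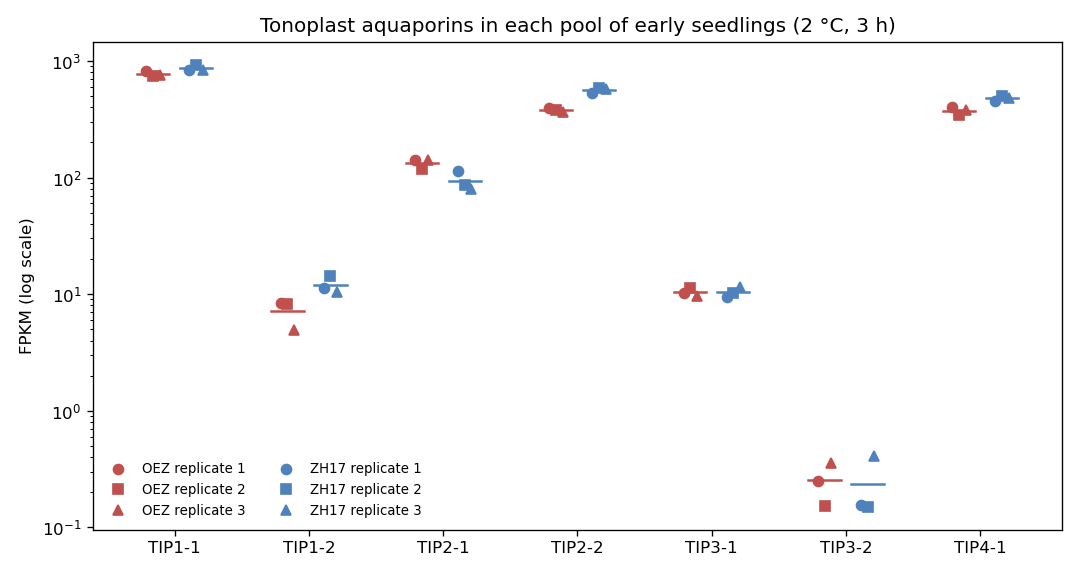
FPKM (log scale) of the 7 tonoplast aquaporins in each pool, with OEZ in red to the left and ZH17 in blue to the right of each gene; symbols mark replicates and bars mark means. TIP1-1, TIP2-2 and TIP4-1 lie between 346 and 930 FPKM in every pool, TIP2-2 and TIP4-1 lower in OEZ, and TIP3-2 lies below 0.5 FPKM in all pools.

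OEZ was compared with ZH17 on log2(FPKM + 0.1) with limma over the 22841 loci whose mean reached 0.5 FPKM. A gene was called where OEZ and ZH17 differed by 1.5-fold or more with a Benjamini-Hochberg adjusted p under 0.05. The added constant shrinks the fold changes of weakly expressed genes. Of the 7 TIP genes 6 could be tested, since TIP3-2 was below the limit in both genotypes. None of these 6 genes passed both criteria in limma, against 2.98% of all tested loci. Without the criterion on fold change, 2 of the 6 were lower in OEZ (TIP2-2 and TIP4-1) and 0 were higher, against 3.14% and 2.86% of all tested loci, and 4 of the 6 had an unadjusted p under 0.05, against 23.2%. Every OEZ pool was below every ZH17 pool for 4 of the 6 tested genes, against 13.2% of all tested loci, and above every ZH17 pool for 1 of the 6, against 16.0%. The median log2 fold change was -0.26 over the 6 tested TIP genes and 0.02 over all tested loci.

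**Figure D2:**
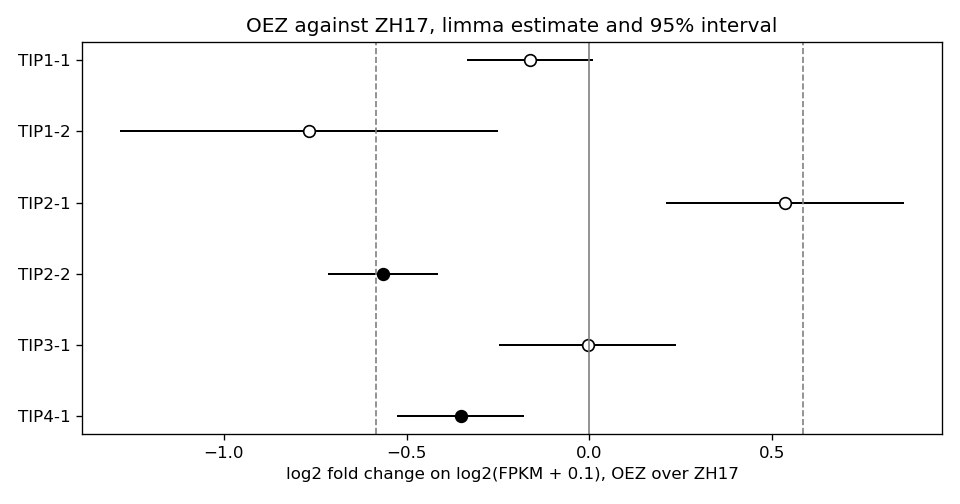
Limma estimate of the log2 fold change, OEZ over ZH17, of the 6 tested genes with its 95% interval; filled points have an adjusted p under 0.05, and dashed lines mark a fold change of 1.5 in either direction. The filled points are TIP2-2 at -0.56 and TIP4-1 at -0.35, both short of the dashed line.

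TIP2-2 had the lowest adjusted p of the 6 tested genes and was lower in OEZ. It had 398, 380 and 366 FPKM in OEZ replicates 1, 2 and 3, against 529, 586 and 577 FPKM in ZH17 replicates 1, 2 and 3. The genotypes did not overlap, and the pools of each genotype lay close together, with a coefficient of variation of 4.18% in OEZ and 5.47% in ZH17. The means were 381 ± 15.9 FPKM in OEZ and 564 ± 30.9 FPKM in ZH17 (SD, n = 3 pools each). The log2 fold change was -0.56 (standard error 0.06, 95% interval -0.71 to -0.42, limma adjusted p = 0.00538), which falls just short of the criterion on fold change, 0.585 on the log2 scale. The adjusted p stayed under 0.05 whichever of the 6 pools was left out, and without OEZ replicate 1 or without ZH17 replicate 1 the gene also passed the criterion on fold change, at -0.60 and -0.61. In a bulk sample, less RNA per cell and fewer cells that express the gene cannot be told apart.

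TIP2-1, its closest relative by name, had the higher mean in OEZ but did not pass the test. It had 141, 119 and 140.0 FPKM in OEZ replicates 1, 2 and 3, against 113, 86.6 and 79.3 FPKM in ZH17 replicates 1, 2 and 3. All OEZ pools were above all ZH17 pools, although OEZ replicate 2 lay near ZH17 replicate 1. The means were 134 ± 12.2 FPKM in OEZ and 92.9 ± 17.7 FPKM in ZH17 (SD, n = 3 pools each). The log2 fold change of 0.53 (standard error 0.14, 95% interval 0.21 to 0.86) did not pass the test (limma adjusted p = 0.0692). One library decided this call, since without ZH17 replicate 1 the log2 fold change was 0.68 with a limma adjusted p of 0.0167 and both criteria were met.

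The ratio of the TIP2 genes within a pool is free of scaling between libraries. TIP2-1 over TIP2-2 was 0.355, 0.315 and 0.383 in OEZ replicates 1, 2 and 3, against 0.214, 0.148 and 0.137 in ZH17 replicates 1, 2 and 3. The mean ratio was 0.351 ± 0.0343 in OEZ and 0.166 ± 0.0414 in ZH17 (SD, n = 3 pools each, p = 0.1 in an exact two-sided permutation test, where 3 pools against 3 can reach no smaller p). The OEZ mean was 2.11 times the ZH17 mean, with a range of 1.94 to 2.46 when each pool was left out in turn. This ratio was chosen after the values of both genes had been seen.

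**Figure D3:**
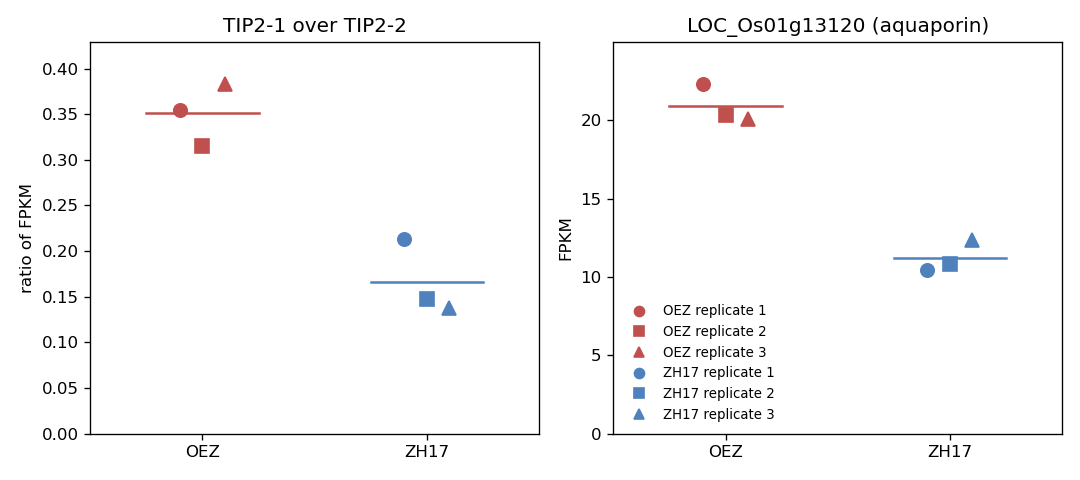
Left, ratio of FPKM of TIP2-1 to TIP2-2 in each pool; right, FPKM of LOC_Os01g13120, another aquaporin locus. OEZ is in red and ZH17 in blue, symbols mark replicates and lines mark means. The ratio lies between 0.315 and 0.383 in OEZ and between 0.137 and 0.214 in ZH17, and the other locus between 20.1 and 22.3 FPKM in OEZ and between 10.4 and 12.4 FPKM in ZH17.

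TIP4-1, a further abundant TIP, was also lower in OEZ. It had 401, 346 and 377 FPKM in OEZ replicates 1, 2 and 3, against 452, 501 and 480 FPKM in ZH17 replicates 1, 2 and 3. The genotypes did not overlap, and the means were 375 ± 27.8 FPKM in OEZ and 478 ± 24.6 FPKM in ZH17 (SD, n = 3 pools each). The log2 fold change was -0.35 (standard error 0.07, 95% interval -0.52 to -0.18, limma adjusted p = 0.0388). The adjusted p stayed under 0.05 when ZH17 replicate 1 was left out (limma adjusted p = 0.0461), and it was 0.0536 to 0.138 when any other pool was.

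TIP1-1, the most highly expressed of the 7 genes, had 825, 736 and 762 FPKM in OEZ replicates 1, 2 and 3, against 842, 930.1 and 829.6 FPKM in ZH17 replicates 1, 2 and 3. The genotypes came close without overlapping, OEZ replicate 1 lying just under ZH17 replicate 3. The means were 775 ± 45.7 FPKM in OEZ and 867 ± 54.8 FPKM in ZH17 (SD, n = 3 pools each), and the log2 fold change of -0.16 did not pass the test (standard error 0.07, 95% interval -0.33 to 0.01, limma adjusted p = 0.233). The interval leaves out a change of 1.5-fold in either direction.

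TIP1-2 was far less expressed than TIP1-1, the ratio of TIP1-2 to TIP1-1 being 0.00925 ± 0.00244 in OEZ and 0.0138 ± 0.00137 in ZH17 (SD, n = 3 pools each). It had 8.32, 8.22 and 4.95 FPKM in OEZ replicates 1, 2 and 3, against 11.3, 14.3 and 10.5 FPKM in ZH17 replicates 1, 2 and 3. Every OEZ pool was below every ZH17 pool, and OEZ replicate 3 was the lowest. The log2 fold change, -0.77, was the largest in size among the 6 tested genes but had the widest interval (standard error 0.22, 95% interval -1.28 to -0.25), and it did not pass the test (limma adjusted p = 0.0924). Without OEZ replicate 3 it was -0.52 (limma adjusted p = 0.154).

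The TIP3 genes are the grain forms of the family. TIP3-1 had 10.1, 11.2 and 9.72 FPKM in OEZ replicates 1, 2 and 3, against 9.42, 10.2 and 11.5 FPKM in ZH17 replicates 1, 2 and 3. The pools of the genotypes were intermixed, and the means were 10.3 ± 0.755 FPKM in OEZ and 10.4 ± 1.07 FPKM in ZH17 (SD, n = 3 pools each). The log2 fold change was -0.01 (standard error 0.10, 95% interval -0.24 to 0.23, limma adjusted p = 0.983), an interval that leaves out a change of 1.5-fold in either direction.

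TIP3-2 had 0.248, 0.153 and 0.358 FPKM in OEZ replicates 1, 2 and 3, against 0.157, 0.148 and 0.407 FPKM in ZH17 replicates 1, 2 and 3. The pools overlapped, and replicate 3 was the highest in both genotypes. After scaling by relative depth, the values were 2, 1 and 3 times the lowest value in OEZ replicates 1, 2 and 3, and 1, 1 and 3 times that value in ZH17 replicates 1, 2 and 3, each within 0.034 of a whole number. Values in whole steps of this kind are what very few counted fragments would give, and no difference between genotypes was detectable for this gene at this depth.

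Loci of grain tissue differed between pools, and 10 that the study's table of changed genes describes as alpha-amylases, storage proteins, a dehydrin or a late embryogenesis protein were set beside TIP3-1. That table was made from these 6 libraries. The 10 loci summed to 86.4, 338 and 84.5 FPKM in OEZ replicates 1, 2 and 3, against 246, 382 and 291 FPKM in ZH17 replicates 1, 2 and 3. A single locus, the dehydrin LOC_Os03g45280, made up most of the sums of OEZ replicates 1 and 3. It had 79.1, 104 and 78.3 FPKM in OEZ replicates 1, 2 and 3, against 172, 175 and 144 FPKM in ZH17 replicates 1, 2 and 3. OEZ replicate 2 was the highest OEZ pool at 7 of the 10 loci, the lowest at 2 and between the others at 1. LOC_Os05g41970, a 2S albumin of seed protein reserves, had 0.466, 38.4 and 0.223 FPKM in OEZ replicates 1, 2 and 3, against 0.782, 11.4 and 9.53 FPKM in ZH17 replicates 1, 2 and 3. The alpha-amylase LOC_Os02g52710, of a family that breaks down grain starch, had 0.0654, 127 and 0.572 FPKM in OEZ replicates 1, 2 and 3, against 42.6, 123 and 81.8 FPKM in ZH17 replicates 1, 2 and 3. At both loci OEZ replicate 2 was far above the other OEZ pools and was the highest of all 6 pools. The loci did not share this pattern throughout. The alpha-amylase LOC_Os06g49970 had 0.744, 0.355 and 0.800 FPKM in OEZ replicates 1, 2 and 3, against 1.28, 1.08 and 1.28 FPKM in ZH17 replicates 1, 2 and 3. The late embryogenesis locus LOC_Os05g46480 had 4.98, 2.57 and 3.94 FPKM in OEZ replicates 1, 2 and 3, against 3.26, 10.3 and 12.8 FPKM in ZH17 replicates 1, 2 and 3. OEZ replicate 2 was the lowest of all pools at these. Over the 10 loci it was above all ZH17 pools at 5, within their range at 2 and below them all at 3. Over the same OEZ pools the highest value of TIP3-1 was 1.15 times its lowest. Of the 10 loci, 1 was called in limma, as lower in OEZ, against 1.42% of all tested loci called lower and 1.56% called higher. It was the dehydrin LOC_Os03g45280, at 87.2 ± 14.7 FPKM in OEZ and 164 ± 17.4 FPKM in ZH17 (SD, n = 3 pools each).

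**Figure D4:**
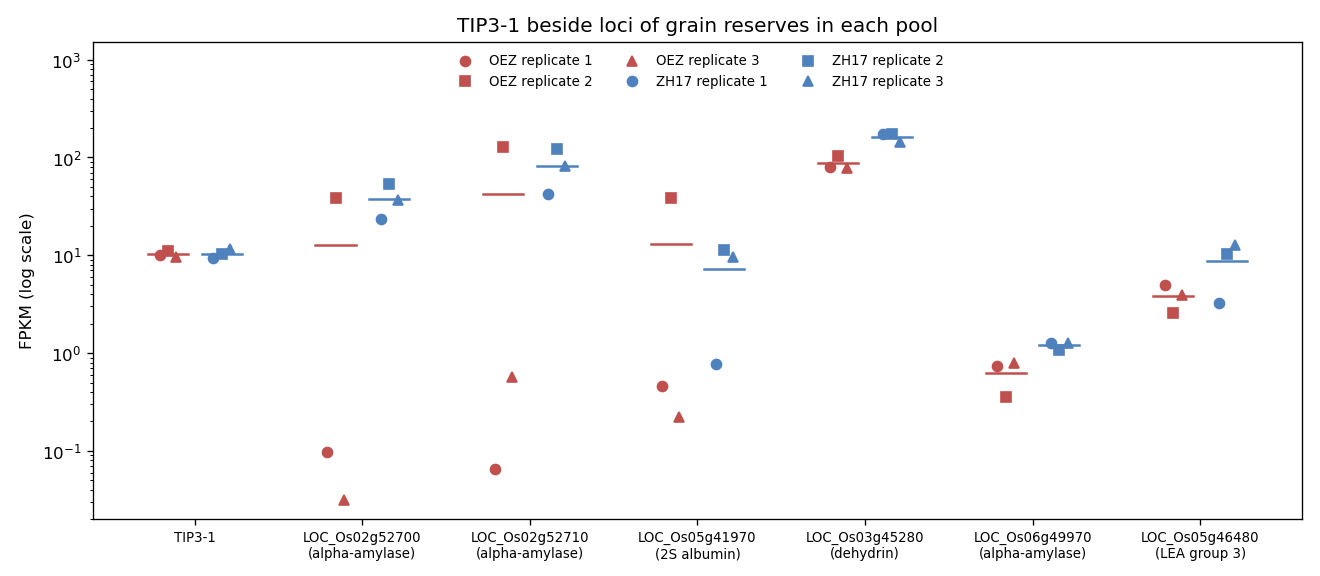
FPKM (log scale) of TIP3-1 and of 6 of the 10 loci of grain reserves or late seed development in each pool; OEZ is in red and ZH17 in blue, symbols mark replicates and bars mark means. TIP3-1 stays between 9.42 and 11.5 FPKM, while LOC_Os02g52710 spans 0.0654 to 127 FPKM within OEZ. OEZ replicate 2 is the highest OEZ pool at the first 4 of these loci and the lowest at the last 2.

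The other tested TIP genes were also compared without OEZ replicate 2. The grain sum of that pool lay within the ZH17 range, and those of OEZ replicates 1 and 3 lay below it. That sum includes the dehydrin LOC_Os03g45280, which was lower in every OEZ pool than in any ZH17 pool. By single locus, OEZ replicate 2 was above all ZH17 pools at 5 of the 10 loci, within their range at 2 and below them all at 3. Its place in the sum therefore does not show a grain content like that of ZH17. Leaving out OEZ replicate 2 cannot separate grain content from genotype, since the OEZ pools that remain have the lowest grain sums. Without OEZ replicate 2, TIP2-2 had a log2 fold change of -0.56 (limma adjusted p = 0.0271) and TIP2-1 of 0.61 (limma adjusted p = 0.106). TIP4-1 had a log2 fold change of -0.30 without that pool (limma adjusted p = 0.104). For TIP1-1 it was -0.13 (limma adjusted p = 0.450) and for TIP1-2 it was -0.88 (limma adjusted p = 0.131). A second set of genes was set beside the TIP genes. The 11 chlorophyll A-B binding protein loci of the same table, which encode light-harvesting proteins of green tissue, summed to 5748 to 6783 FPKM in OEZ and to 10131 to 10765 FPKM in ZH17, with 10 called lower and 1 called higher in OEZ, against 1.42% and 1.56% of all tested loci. These loci come from a table of genes selected for change in the same libraries, so these counts follow in part from how they were chosen. The part of green tissue in the values of TIP2-2 and TIP4-1 was not tested.

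Added together, the 7 genes reached 1784, 1601 and 1660.0 FPKM in OEZ replicates 1, 2 and 3, against 1956, 2129 and 1988 FPKM in ZH17 replicates 1, 2 and 3. All OEZ sums were below all ZH17 sums, with means of 1682 ± 93.4 FPKM in OEZ and 2024 ± 91.7 FPKM in ZH17 (SD, n = 3 pools each, p = 0.1 in an exact two-sided permutation test, its lowest possible value), a ratio of 0.831. The sum covers these 7 genes and no other TIP gene. As a share of the FPKM of all loci, the 7 genes took 0.189 ± 0.00735% in OEZ and 0.236 ± 0.0113% in ZH17. TIP1-1, TIP2-2 and TIP4-1 together made up 91.0% of the sum in OEZ and 94.3% in ZH17.

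The make-up of the sum also differed between genotypes. TIP2-2 held 22.7 ± 0.909% of it in OEZ and 27.9 ± 1.03% in ZH17, and TIP2-1 held 7.94 ± 0.486% in OEZ and 4.61 ± 1.01% in ZH17 (SD, n = 3 pools each). TIP1-1 held 46.1 ± 0.184% in OEZ and 42.8 ± 1.001% in ZH17, although its own mean was lower in OEZ, and TIP4-1 held 22.3 ± 0.590% in OEZ and 23.6 ± 0.527% in ZH17. For each of these 4 shares the pools of the genotypes did not overlap (exact two-sided permutation test, p = 0.1 each, adjusted p = 0.14 over the 7 shares). Shares of one sum are tied to each other, so that a lower share of one gene raises those of the rest.

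**Figure D5:**
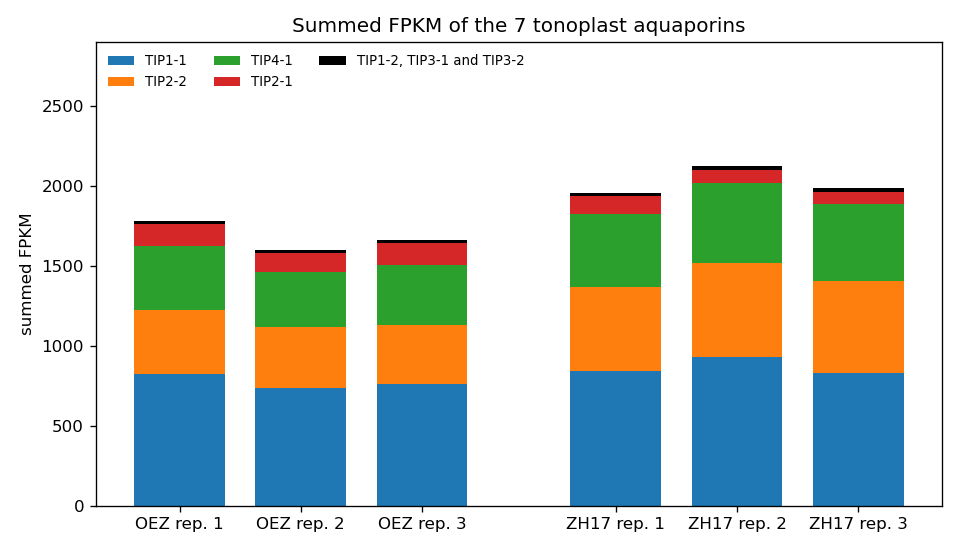
Summed FPKM of the 7 tonoplast aquaporins in each pool, stacked by gene, with the 3 OEZ pools on the left and the 3 ZH17 pools on the right. The OEZ bars reach 1601 to 1784 FPKM and the ZH17 bars 1956 to 2129 FPKM, and TIP1-1 is the largest part of every bar.

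Beyond the 7 genes, 2 loci are described only as aquaporins in the study's table of changed genes, which was drawn from these libraries. Whether either is a TIP gene is not given in the sources used here, and neither entered the counts or sums above. LOC_Os01g13120 had 22.3, 20.4 and 20.1 FPKM in OEZ replicates 1, 2 and 3, against 10.4, 10.8 and 12.4 FPKM in ZH17 replicates 1, 2 and 3. It was higher in OEZ and was called, against 1.56% of all tested loci called higher. The limma adjusted p was 0.00337 for a log2 fold change of 0.90 and a standard error of 0.09. Since the locus comes from a table of genes selected for change in the same libraries, this call follows in part from how it was chosen. LOC_Os07g26660 had 5.31, 4.36 and 2.71 FPKM in OEZ replicates 1, 2 and 3, against 5.29, 7.56 and 6.65 FPKM in ZH17 replicates 1, 2 and 3, with overlapping pools and no call (limma adjusted p = 0.170). Proton pyrophosphatases pump protons across the tonoplast, and the 2 such loci of the table were not called either. LOC_Os02g55890 had 12.0, 13.4 and 6.55 FPKM in OEZ replicates 1, 2 and 3, against 44.3, 52.7 and 8.37 FPKM in ZH17 replicates 1, 2 and 3, so that ZH17 replicate 3 lay among the OEZ pools (limma adjusted p = 0.268). LOC_Os01g23580 averaged 1.09 ± 0.131 FPKM in OEZ and 2.01 ± 1.02 FPKM in ZH17 (SD, n = 3 pools each, limma adjusted p = 0.352).

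Profiles over the 6 pools were compared by the root mean square difference of log2(FPKM + 0.1), each centred on its own mean, among the other 14704 loci that averaged 5 FPKM or more. TIP1-2 had the fewest loci within 0.1 of it among the 6 genes, 1 locus, LOC_Os01g44190, at a difference of 0.0995 on the log2 scale. The aquaporin locus LOC_Os07g26660 was the third nearest to TIP1-2, at 0.154. TIP2-1 had 12 loci within 0.1, the nearest being LOC_Os07g07440 at 0.0649, LOC_Os09g23550 at 0.0703 and LOC_Os02g44310 at 0.0809. TIP2-2 had 105 such loci, the nearest being LOC_Os04g55159 and LOC_Os03g20700, both at 0.0425, and LOC_Os01g72100 at 0.0447. The study's table describes LOC_Os04g55159 as a lipid transfer family protein (LTPL125). It is among these 105 loci, whose other members are not described here, and a link to OsLTPL159 was not tested. TIP4-1 had 401, with LOC_Os12g10740 nearest at 0.0228. The flatter profiles of TIP1-1 and TIP3-1 had 1866 and 1867 loci within 0.1, the nearest being LOC_Os03g49640 at 0.0148 and LOC_Os03g04140 at 0.0242. The count within 0.1 fell as the spread of a gene's own profile rose, from 0.103 for TIP3-1 to 0.472 for TIP1-2. It therefore does not rank how unusual a profile is. With 6 pools of 2 genotypes, these are descriptions of likeness with no test.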

How the data were processed

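Paired-end RNA-seq libraries of 3 OEZ and 3 ZH17 pools were used, grouped by their sample labels. The authors mapped reads to IRGSP-1.0 (MSU7 annotation) with TopHat2 at default parameters and deposited one FPKM value per locus and library from Cuffdiff. Versions and the scaling between libraries are not given in the sources used here. How that pipeline divided reads shared between similar TIP genes was not tested.

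The 22841 loci whose mean reached 0.5 FPKM were compared on log2(FPKM + 0.1) with limma 3.58.1 (R 4.3.3, empirical Bayes with a variance trend, Benjamini-Hochberg), after a check on simulated data, with the fold change and adjusted p thresholds of the study's methods. Its Cuffdiff test needs reads. Single values were compared with exact two-sided permutation tests (scipy 1.17.1, Python 3.11.15). The sources used here do not say whether replicate numbers pair pools. Relative depth came from the most frequent ratio of FPKM to ZH17 replicate 1 over loci below 0.15 FPKM.

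The members and lists were chosen with earlier results of these data known. Genes named were the 7 TIP genes, OsLTPL159, the aquaporin, proton pyrophosphatase, grain and chlorophyll A-B binding loci of the study's table, and the nearest profiles, of which up to 3 per gene were sought. The study's table also holds its own fold changes and p values, which were not used. Alternatives were pseudocounts of 1 and 0.01, no filter or one at 5 FPKM, median-ratio scaling, quantile normalization, no variance trend, a replicate block, no criterion on fold change and leaving out each pool.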

Additional observations from a re-analysis of the deposited data

How the results depend on the processing

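In 8 alternative fits to all pools (pseudocounts of 1 and 0.01, no filter, a filter at 5 FPKM, median-ratio scaling, quantile normalization, no variance trend and the replicate block), the 6 tested TIP genes kept the sign of their log2 fold change. The number of TIP genes called lower in OEZ was 0, but it was 1 after quantile normalization (TIP2-2, log2 fold change -0.59) and 2 with no criterion on fold change. Leaving out each pool in turn gave 0 to 1 called lower (TIP2-2, without OEZ replicate 1 or ZH17 replicate 1) and 0 to 1 called higher (TIP2-1, without ZH17 replicate 1). The log2 fold change of TIP3-1 then ranged from -0.074 to 0.072 and changed sign without OEZ replicate 1, OEZ replicate 3 or ZH17 replicate 3. The summed FPKM of the 7 genes, OEZ over ZH17, ranged from 0.805 to 0.853. The adjusted p of TIP4-1 passed 0.05 in 5 of the 8 fits and was 0.0637 with no filter and 0.0953 without the variance trend. With the replicate number as a block, 321 loci were called in place of 681, and the limma adjusted p was 0.0516 for TIP2-2 and 0.149 for TIP4-1. Over all tested loci, deviations of pools of the same number correlated by -0.06 to 0.03, and those of different numbers by -0.05 to 0.04. The sum of the grain loci was nevertheless highest in replicate 2 of both genotypes, at 338 FPKM in OEZ and 382 FPKM in ZH17. Whether pools of the same number share a batch was not tested. The cause of the changes between fits was not tested. TIP3-2, below 0.5 FPKM in every pool, was not called in the no-filter fit (limma adjusted p = 0.904).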
